A study of Mus musculus with 4 samples.

Results

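The 10 genes described here encode an interleukin and a growth factor that restrain macrophages, with their receptors and feedback regulators. They were Il10, Il10ra and Il10rb, their signal transducer Stat3, the inhibitors Socs1 and Socs3, and Tgfb1, Tgfbr1, Tgfbr2 and Tgfbi. The genes were chosen by name and found by matching the Ensembl identifiers of the count table to mouse GENCODE M21. All 10 were among the 54146 genes listed, and all 10 were abundant enough to be tested. Expression was measured by RNA sequencing of tumor-associated macrophages (TAMs), sorted as live CD11b+ F4/80+ cells from the CD45+ fraction of MCA205 tumors, a transplanted mouse fibrosarcoma. All tumors were grown in female C57BL/6 mice aged 8 to 16 weeks that received 1000000 MCA205 cells in the right flank, and the labels name no altered allele or transgene. The 2 control libraries, labelled vehicle, came from mice that were not given propranolol, and the 2 propranolol libraries from mice that drank propranolol, a nonselective blocker of beta-adrenergic receptors, at 0.5 g/L from the day of inoculation. The comparison asked how blockade of beta-adrenergic receptors altered the transcripts of TAMs in the tumor. How many mice contributed to a library is not given in the sources used here, and the p-values measure only the spread between these libraries.

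IL-10 binds a receptor of 2 chains, encoded by Il10ra and Il10rb, which activates the kinases JAK1 and TYK2 and, through them, the transcription factor STAT3. In macrophages this pathway restrains the production of inflammatory cytokines, and SOCS3 is one of the proteins that STAT3 induces. SOCS1 and SOCS3 inhibit Janus kinases, SOCS1 mainly in interferon signaling and SOCS3 mainly in signaling of IL-6 type receptors. TGF-beta 1 is secreted in a latent complex and, once released, binds TGFBR2, which recruits and phosphorylates TGFBR1. TGFBR1 in turn phosphorylates SMAD2 and SMAD3. TGFBI is a secreted matrix protein that macrophages produce and that was named for its induction by TGF-beta.

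The counts added up to 13798249 and 23018142 in control replicates 1 and 2, and to 39818103 and 16424081 in propranolol replicates 1 and 2. Levels are in CPM, that is, per 1000000 counts of the TMM-scaled library size. All 9 macrophage markers were detected in every library, as were all 10 T cell and all 6 NK cell markers. Detection alone therefore does not single out macrophages, and the macrophage label rests on level. In every library the summed CPM of the macrophage markers was the highest of the 10 marker lists. These markers summed to 18169 and 17499 CPM in the controls and 22857 and 20743 CPM after propranolol. Lyz2, which encodes lysozyme, was the most abundant of them, and Csf1r, the receptor for CSF1, was the one of the 9 that was called higher (log2 fold change 0.59). That count was 2 without either control library and 3 without propranolol replicate 2, and 0 with the GC correction described below. Counts of called markers, in this and the next paragraph, stand beside 12.2% of all tested genes called higher and 15.6% called lower. With the GC correction 12.6% of all tested genes were called in either direction. Transcripts of other cell types differed between the libraries. Control replicate 1 stood apart for fibroblast or sarcoma cell transcripts, with a summed CPM of 2763 against 1034 in control replicate 2 and 618 and 675 in the propranolol libraries. Of these 7 markers 5 were called lower, or 3 without control replicate 1, and Col3a1, a fibrillar collagen gene, was the most abundant. In bulk libraries, fewer cells of a type and less RNA per cell cannot be told apart. T cell transcripts summed to 272 and 316 CPM in control TAMs and 148 and 86.3 CPM after propranolol, with 8 of 10 called lower and Cd8a, the CD8 alpha chain gene, the most abundant. The other 2 were not called, Cd4, the gene of the CD4 coreceptor, at 13.2 and 13.4 CPM against 16.2 and 16.9 CPM (log2 fold change 0.32) and Foxp3, which marks regulatory T cells, with a log2 fold change of 0.20. NK cell transcripts summed to 104 and 110 CPM against 45.2 and 21.8 CPM, with 6 of 6 called lower and Prf1, the perforin gene, the most abundant. Neutrophil transcripts were at 179 and 197 CPM against 355 and 381 CPM, with 5 of 7 tested called higher. The most abundant neutrophil transcript was Csf3r, the receptor for G-CSF, which was not called (log2 fold change 0.56). The defining marker Ly6g was near 0, with 0 and 2 counts in control TAMs and 17 and 8 after propranolol.

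Transcripts of the remaining cell types moved in both directions. Monocyte transcripts summed to 912 and 840 CPM in control TAMs and 1070 and 914 CPM after propranolol, with 3 of 6 called higher (1 without propranolol replicate 1) and F13a1 the most abundant over the 4 libraries. Ccr2, the receptor for CCL2 and the most abundant in control TAMs, differed the other way, at 453 and 397 CPM against 306 and 262 CPM (log2 fold change -0.58, edgeR adjusted p = 0.00249, just under 1.5-fold, and 0.36 with the GC correction). It was called lower without control replicate 2 and without propranolol replicate 1, as 1 of the 6 in each case. Dendritic cell transcripts summed to 32.8 and 32.1 CPM against 20.1 and 17.7 CPM, with 3 of 6 called lower (2 without control replicate 1 or without propranolol replicate 2, and 1 with the GC correction) and Ccr7 the most abundant. B cell transcripts were at 9.96 and 13.4 CPM against 20.3 and 19.7 CPM and consisted mainly of Cd79b, with 1 of 2 tested genes called in each direction. Of these the lower call was lost with any one library left out, and both were lost with the GC correction. Endothelial transcripts were at 43.9 and 41.4 CPM against 56.8 and 50.4 CPM, led by Pecam1 with 1 of 4 tested genes called higher (0 without control replicate 2, without propranolol replicate 1 or with the GC correction). Mast cell or basophil transcripts were at 2.69 and 1.91 CPM against 0.769 and 0.916 CPM, almost all Gata2, while Mcpt8 and Fcer1a had 0 counts in all 4 libraries. The part of these transcripts in the values below was not tested.

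**Figure D1:**
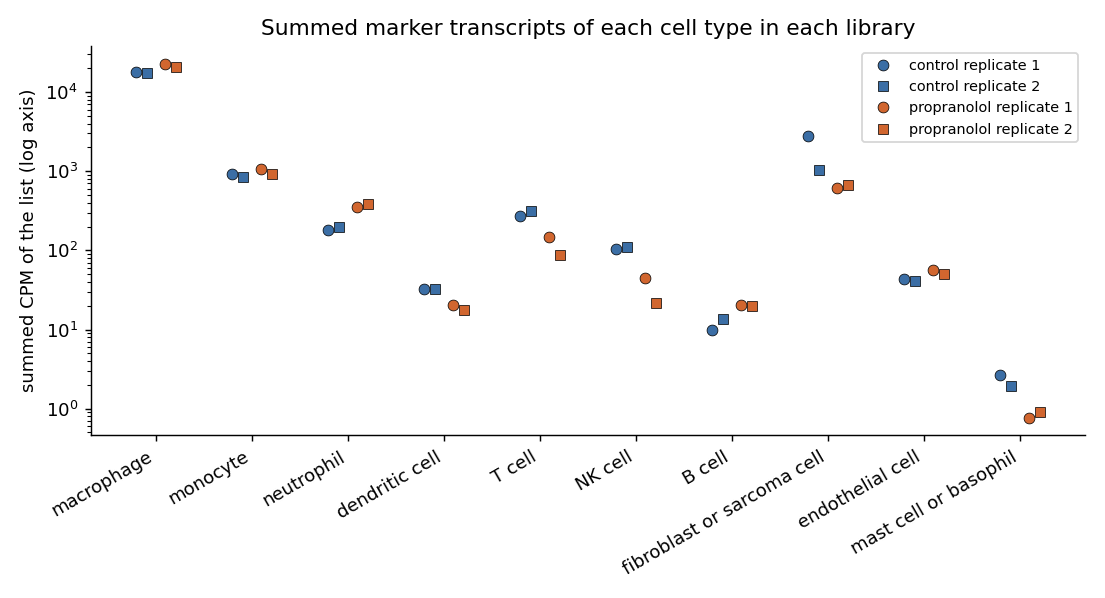
Summed CPM (log axis) of 10 lists of cell type markers in each library, with blue for control and orange for propranolol, circles for replicate 1 and squares for replicate 2. Macrophage transcripts were the highest in every library, and fibroblast or sarcoma cell transcripts were highest in control replicate 1 at 2763 CPM.

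Among the 10 genes, Tgfbr1 fell 2.04-fold and Tgfbi rose 1.65-fold in TAMs of propranolol treated mice, and the other 8 were not called. A gene was called when the edgeR quasi-likelihood test gave an adjusted p below 0.05 over all tested genes and the change exceeded 1.5-fold. By this rule 2 of 10 genes were called, beside 27.8% of all 14688 tested genes (12.2% higher and 15.6% lower). Tgfb1 also had an adjusted p below 0.05 but differed by less than 1.5-fold, which gave 3 of 10 genes at any fold beside 42.2% of all tested genes. The CPM of the groups did not overlap for 7 of the 10 genes, beside 72.6% of all tested genes. Of these, 6 were higher and 1 was lower in both propranolol libraries, beside 35.8% and 36.8% of all tested genes, and the ranges of Il10rb, Socs1 and Socs3 overlapped. This split depends on the scaling. In TPM, in which counts are divided by exon length before each library is scaled to 1000000, with no TMM factor, 2 of the 10 (Tgfb1 and Tgfbi) were higher and 4 (Il10ra, Il10rb, Tgfbr1 and Tgfbr2) lower without overlap, beside 23.0% and 50.0% of all tested genes (73.0% in either direction). The log2 ratios of all tested genes were lower in TPM than in CPM by a median of 0.24. The median log2 fold change of the 10 genes was 0.13, and that of all tested genes was -0.02. With 2 libraries a group, an exact two-sided permutation test of a single gene cannot give a p below 0.333, so the p-values rest on the edgeR fit across genes.

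**Figure D2:**
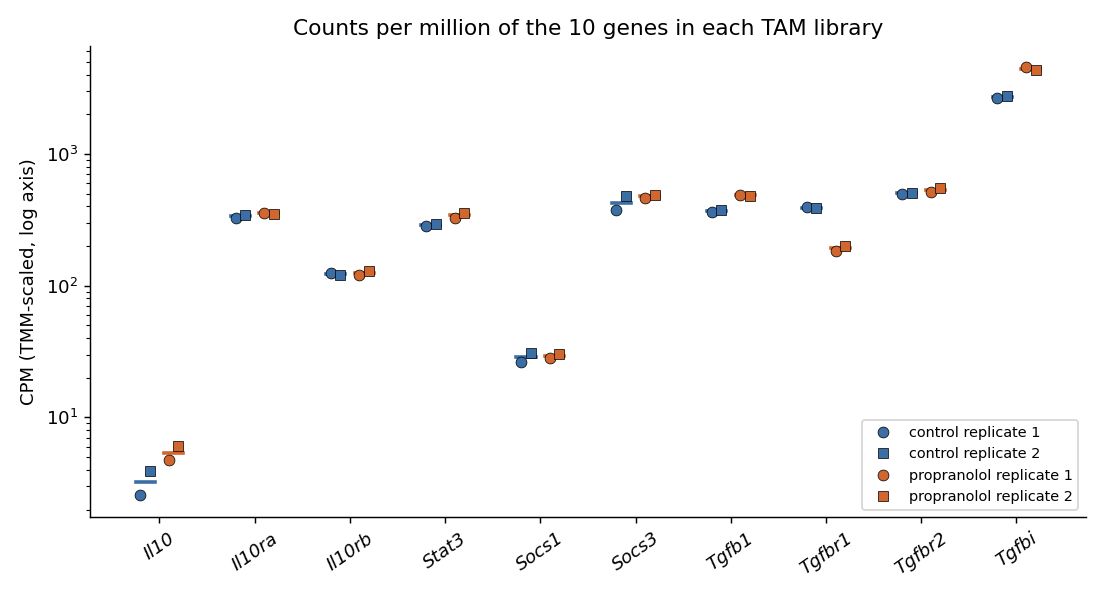
CPM of each of the 10 genes in each library (log axis), with blue for control and orange for propranolol, circles for replicate 1, squares for replicate 2 and bars for the group means. In CPM Tgfbr1 was the only one of the 10 lower in both propranolol libraries, whereas in TPM Il10ra, Il10rb and Tgfbr2 were so too, and Tgfbi was the most abundant in all 4.

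A relation to base composition bears on all of these values. Across 14681 tested genes, log2 fold changes increased with GC content, taken from the longest transcript (Spearman's rho 0.577, across genes, which are not independent replicates). Between replicates of one group the rho was 0.105 for the control and 0.225 for the propranolol libraries, and between single libraries of the different groups it was 0.543 to 0.597. The fit was therefore repeated with the GC trend of each library removed, which left 12.6% of all tested genes called, 1122 higher and 733 lower in place of 1798 and 2286, and moved their median log2 fold change by 0.11, from -0.02 to 0.09. With that correction Tgfbr1 and Tgfbi were no longer called and Il10 was called higher, and the median of the 10 genes was 0.08. Both values are given below for each of the 10 genes, and corrected values of other genes are given as fitted, without subtracting this shift. Whether the trend arose in the cells or in the libraries was not tested.

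**Figure D3:**
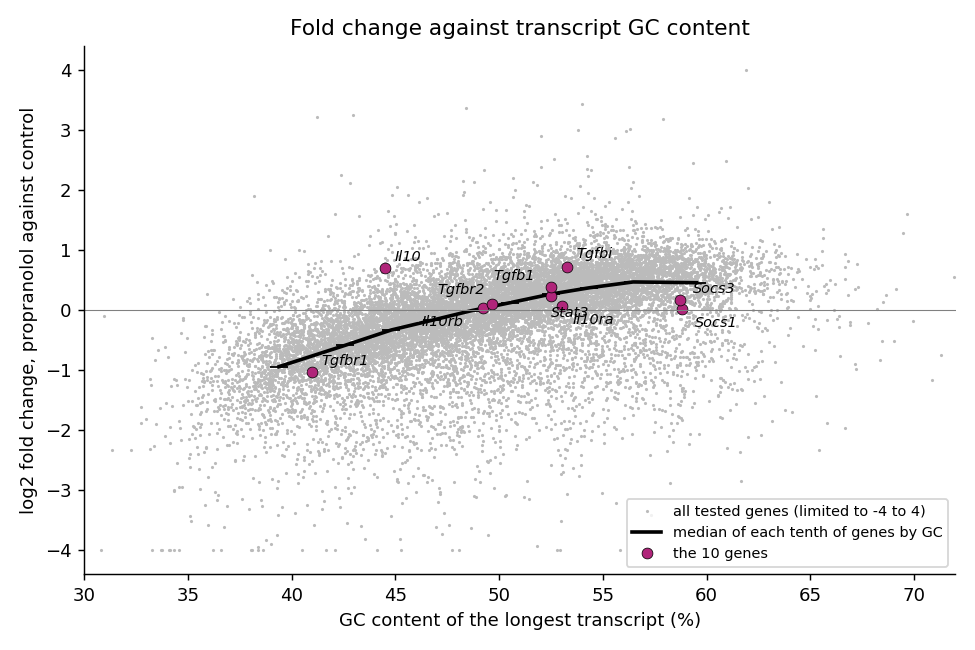
Log2 fold change, propranolol against control, of every tested gene (grey) against the GC content of its longest transcript in percent, with the 10 genes in purple and the median of each of 10 equal bins as a black line. The line rises from -0.94 at the lowest to 0.46 at the highest GC content. Tgfbr1 lies below it, and Il10 and Tgfbi lie above it.

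Il10, the gene of the cytokine itself (ENSMUSG00000016529.5, chromosome 1, 131019845 to 131024974, plus strand, GRCm38), was the least abundant of the 10. It had 38 and 98 counts in control TAMs and 172 and 92 counts after propranolol. These corresponded to 2.56 and 3.90 CPM in control TAMs and 4.73 and 6.02 CPM after propranolol. The groups did not overlap in CPM, though they did in TPM, and the gap between the 2 control libraries was wider than that from control replicate 2 to the nearest propranolol library. The means were 3.23 ± 0.948 CPM and 5.37 ± 0.913 CPM (SD, n = 2 each). The log2 fold change was 0.70 (SE 0.32, 95% interval -0.01 to 1.42), and the edgeR adjusted p was 0.105. At this depth the interval covers both no change and a change of more than 1.5-fold. The transcript has a GC content of 44.5%, and genes of that bin, from 43.8% to 45.8% GC, had a median log2 value of -0.33. Corrected for GC content, Il10 was at 1.13 (SE 0.33, edgeR adjusted p = 0.0336), or 1.02 above the shift of all genes, and was called higher. It was also called without control replicate 2, at 1.07 (edgeR adjusted p = 0.0245), and not without any of the other 3 libraries.

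Among 161 other tested genes, those of the set and of the pathway and marker lists described here, Csf3r, Jak3 and Tyk2 had the pattern over the 4 libraries most like that of Il10. Likeness was the Euclidean distance between log2(CPM + 0.1) values centred on each gene's mean over the 4 libraries, a description of 4 points. The distances were 0.223 for Csf3r, 0.277 for Jak3 and 0.338 for Tyk2. Jak3, a kinase that pairs with receptors containing the common gamma chain, was at 140 and 179 CPM in control TAMs and 216 and 246 CPM after propranolol, which are the same order of libraries as for Il10.

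The receptor chains of IL-10 differed little. Il10ra, which encodes the ligand-binding chain (ENSMUSG00000032089.16, chromosome 9, 45253837 to 45269149, minus strand), was at 329 and 345 CPM in control TAMs and 356 and 349 CPM after propranolol. Its groups did not overlap, higher after propranolol in CPM and lower in TPM, yet in CPM the gap between them was smaller than the spread within the control libraries, and its log2 fold change was 0.07 (95% interval -0.14 to 0.27, edgeR adjusted p = 0.598). With the GC correction it was -0.14, or -0.25 relative to the shift of all genes (edgeR adjusted p = 0.290). Il10rb, the chain shared with receptors of other cytokines of the family (ENSMUSG00000022969.13, chromosome 16, 91406164 to 91425834, plus strand), was at 124 and 121 CPM against 121 and 129 CPM, and its groups overlapped in CPM, while in TPM both propranolol libraries were below both controls. Its log2 fold change was 0.03 (95% interval -0.19 to 0.25), and with the GC correction 0.09. The intervals of both genes lie within 1.5-fold in either direction. Il10rb shares 569 exon bases on the same strand with Gm21970, a gene with 0 counts in all 4 libraries.

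Stat3, the transducer of the IL-10 signal (ENSMUSG00000004040.16, chromosome 11, 100885098 to 100939540, minus strand), was at 285 and 293 CPM in control TAMs and 325 and 359 CPM after propranolol. Both propranolol libraries were above both controls in CPM, while the groups overlapped in TPM. The log2 fold change was 0.24 (SE 0.10, 95% interval 0.03 to 0.46), and the edgeR adjusted p of 0.0673 missed the threshold of 0.05. With the replicate number added to the fit as a block the edgeR adjusted p was 0.0204, at a value of 0.24. With no filter on low counts it was 0.0147, at 0.31. Without propranolol replicate 1 the value was 0.32. All of these values are below 1.5-fold. With the GC correction the value was 0.06, or -0.04 relative to the shift of all genes (edgeR adjusted p = 0.657). Stat3 shares 72 exon bases, 0.756% of its exons, with the neighbouring Stat5a on the opposite strand.

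The 2 SOCS genes of the set, which act as feedback inhibitors, were not called. Socs3 (ENSMUSG00000053113.3, chromosome 11, 117966079 to 117970047, minus strand) was at 374 and 476 CPM in control TAMs and 464 and 490 CPM after propranolol. Control replicate 1 was the low library, and control replicate 2 lay between the propranolol libraries. The log2 fold change was 0.17 (SE 0.12, edgeR adjusted p = 0.296), it was 0.37 without control replicate 2 (edgeR adjusted p = 0.0394) but 0.06 without control replicate 1 (edgeR adjusted p = 0.804), and it was -0.17 with the GC correction (edgeR adjusted p = 0.313). Socs1 (ENSMUSG00000038037.5, chromosome 16, 10782240 to 10785536, minus strand) was at 26.3 and 30.8 CPM in control TAMs and 28.0 and 30.1 CPM after propranolol, which lay inside the control range. The log2 fold change was 0.02 (95% interval -0.28 to 0.32), and with the GC correction it was -0.32, or -0.42 relative to the shift of all genes (edgeR adjusted p = 0.0975). Both transcripts are GC-rich, at 58.7% for Socs3 and 58.8% for Socs1. Genes of that bin, from 57.7% to 75.5% GC, had a median log2 value of 0.46, and 32.8% of them were called higher.

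The bases before the RefSeq starts of the SOCS genes are shown because STAT factors are known to act on these genes. The windows are the 250 bases before the start of the gene in RefSeq (GRCm38.p6), read toward the gene and cut off at the first base that lies in an exon of GENCODE M21, and capitals mark a match to the palindrome of STAT factors, TTCNNNGAA. The Socs3 bases are those of the minus strand at chr11:117969452-117969616 and the Socs1 bases those of the minus strand at chr16:10785537-10785786.
Socs3: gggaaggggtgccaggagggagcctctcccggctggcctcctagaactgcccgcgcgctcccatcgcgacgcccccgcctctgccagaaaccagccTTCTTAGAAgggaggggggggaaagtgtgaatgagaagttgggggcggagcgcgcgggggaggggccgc
Socs1: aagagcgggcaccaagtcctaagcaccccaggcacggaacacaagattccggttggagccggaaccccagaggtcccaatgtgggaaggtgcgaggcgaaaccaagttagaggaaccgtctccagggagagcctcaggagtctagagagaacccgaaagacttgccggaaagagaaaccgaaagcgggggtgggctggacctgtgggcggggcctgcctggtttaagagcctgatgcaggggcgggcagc
The RefSeq and GENCODE starts of Socs3 differ. Its GENCODE gene extends further, to 117970047, so the bases shown lie within that gene's boundaries, in an intron of one of its transcripts, and before the start of the gene in RefSeq only. The match in the Socs3 window read TTCTTAGAA, at chr11:117969512-117969520, and its first base lay 154 bases before the RefSeq start. Such a match, on either strand, was present in 7.02% of 32851 promoter windows of 250 bases. It was the only match among the 7 of the 10 genes that had a RefSeq promoter entry, and Il10, Il10ra and Il10rb had none. The cAMP response element TGACGTCA, found in 1.55% of all windows, and its part TGACG, which lies within it and was found in 17.8%, had no match in the windows of these 7 genes. A match is a description of the letters and no evidence of binding.

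Tgfb1, the gene of the ligand TGF-beta 1 (ENSMUSG00000002603.15, chromosome 7, 25687002 to 25705077, plus strand), was at 363 and 377 CPM in control TAMs and 489 and 481 CPM after propranolol. In CPM the groups were well apart relative to the spread within them. In TPM they were at 236 and 252 against 268 and 274, a gap no wider than that between the controls. Tgfb1 was 1.31-fold higher after propranolol (log2 fold change 0.39, SE 0.09, 95% interval 0.19 to 0.59, edgeR adjusted p = 0.00668), which did not reach the 1.5-fold threshold. With the GC correction the value was 0.21, or 0.11 relative to the shift of all genes, and the edgeR adjusted p was 0.113.

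Tgfbr1, which encodes the signaling type I receptor (ENSMUSG00000007613.15, chromosome 4, 47353222 to 47414931, plus strand), fell in TAMs of propranolol treated mice. It was at 393 and 390 CPM in control TAMs and at 184 and 200 CPM after propranolol. Each propranolol library was about 2-fold below either control. The means were 391 ± 2.33 CPM and 192 ± 11.8 CPM (SD, n = 2 each), a log2 fold change of -1.03 (SE 0.10, 95% interval -1.24 to -0.82, edgeR adjusted p = 0.000103). Leaving out any one library gave values from -1.06 to -0.96. The Tgfbr1 transcript has the lowest GC content of the 10, 41.0%. Genes of that bin, from 30.8% to 41.2% GC, had a median log2 value of -0.94, and 60.2% of them were called lower. Tgfbr1 lies near the upper edge of that bin. In the next bin, up to 43.8% GC, the median was -0.59 and 36.1% were called lower. After the GC correction Tgfbr1 was at -0.27, or -0.38 relative to the shift of all genes, and it was not called (SE 0.10, edgeR adjusted p = 0.0909). With the replicate block added to that correction the edgeR adjusted p was 0.0265, at -0.27, still below 1.5-fold.

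Tgfbr2, the type II receptor that binds the ligand (ENSMUSG00000032440.13, chromosome 9, 116084293 to 116175360, minus strand), was at 497 and 507 CPM in control TAMs and 518 and 555 CPM after propranolol. Both propranolol libraries were slightly above both controls in CPM and below them in TPM. The log2 fold change was 0.09 (95% interval -0.11 to 0.30, edgeR adjusted p = 0.440) and 0.12 with the GC correction. Its transcript has a GC content of 49.6%. Measured per length in TPM, the ratio of Tgfbr2 to Tgfbr1 was 1.01 and 1.04 in control TAMs and 2.25 and 2.21 after propranolol. The 2 receptors were at about equal levels in control TAMs and at unequal levels after propranolol. This ratio compares transcripts of unlike GC content and was not tested.

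Tgfbi (ENSMUSG00000035493.10, chromosome 13, 56609523 to 56639562, plus strand) was the most abundant of the 10 and the one called higher without the GC correction. It was at 2635 and 2739 CPM in control TAMs and at 4535 and 4344 CPM after propranolol. The groups were far apart relative to the spread within them, with means of 2687 ± 73.2 CPM and 4439 ± 135 CPM (SD, n = 2 each). The log2 fold change was 0.72 (SE 0.08, 95% interval 0.54 to 0.90, edgeR adjusted p = 0.000196), and it was 0.70 to 0.79 with any one library left out. The transcript has a GC content of 53.3%, and genes of that bin, from 51.5% to 53.4% GC, had a median log2 value of 0.27. After the GC correction Tgfbi was at 0.51, or 0.40 relative to the shift of all genes, and its edgeR adjusted p was 0.00449. This is a 1.42-fold difference, which is below the threshold of 1.5-fold. The ratio of Tgfbi to Tgfb1 in TPM was 9.69 and 9.72 in control TAMs and 12.4 and 12.1 after propranolol.

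**Figure D4:**
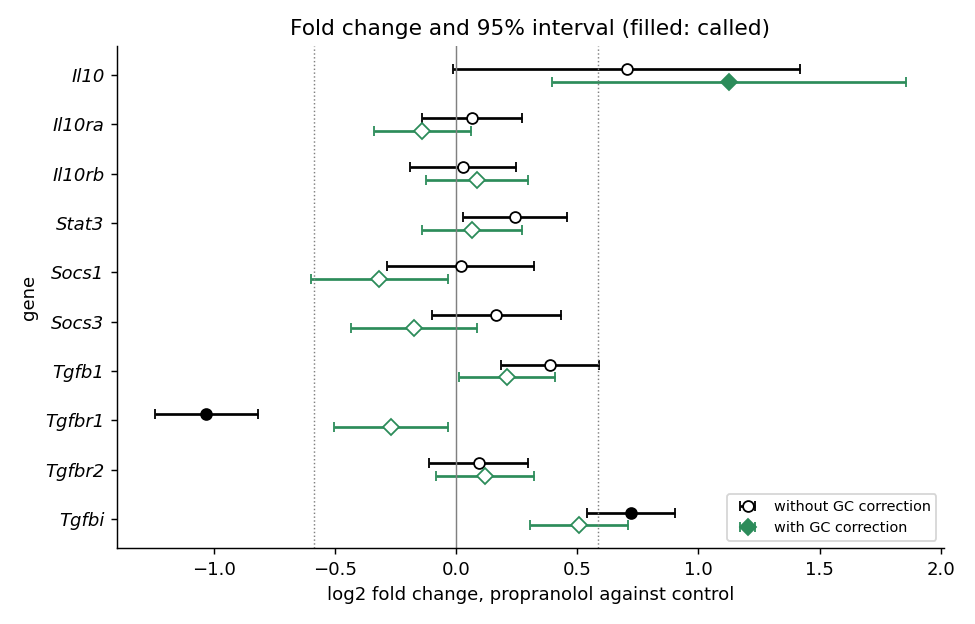
Log2 fold change, propranolol against control, of the 10 genes with 95% intervals, without (black circles) and with (green diamonds) the GC correction. Filled symbols were called and dotted lines mark 1.5-fold. Tgfbr1 and Tgfbi were called without the correction and Il10 with it.

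The bases before the 2 called genes are shown since their transcripts, of unlike GC content, moved in opposite directions. The windows are those of RefSeq described above, plus strand, at chr4:47352972-47353221 for Tgfbr1, the one of its 2 entries that adjoins the GENCODE start, and chr13:56609336-56609522 for Tgfbi.
Tgfbr1: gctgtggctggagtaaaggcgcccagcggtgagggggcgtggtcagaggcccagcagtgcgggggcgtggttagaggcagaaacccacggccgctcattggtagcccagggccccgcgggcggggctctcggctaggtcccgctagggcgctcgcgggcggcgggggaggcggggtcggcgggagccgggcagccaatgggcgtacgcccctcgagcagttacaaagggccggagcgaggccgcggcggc
Tgfbi: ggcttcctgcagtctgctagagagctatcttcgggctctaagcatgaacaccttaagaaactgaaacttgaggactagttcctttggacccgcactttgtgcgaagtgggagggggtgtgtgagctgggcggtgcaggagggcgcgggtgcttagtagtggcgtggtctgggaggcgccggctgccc
No letters are in capitals, since none of the motifs searched had a match. The bases before Tgfbr1 hold 74.8% G or C and those before Tgfbi 59.4%, the reverse order of their transcripts at 41.0% and 53.3%.

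Per length, the order of the 10 genes in control TAMs was Tgfbi at 2371 ± 113 TPM, Socs3 at 489 ± 93.2, Il10ra at 321 ± 17.9, Tgfb1 at 244 ± 11.2, Tgfbr2 at 204 ± 7.16, Tgfbr1 at 199 ± 2.91, Il10rb at 107 ± 0.339, Stat3 at 101 ± 4.06, Socs1 at 32.6 ± 4.31 and Il10 at 8.22 ± 2.58 TPM (SD, n = 2 each). Only Tgfbr2 and Tgfbr1 overlapped among neighbours in this order. In propranolol TAMs the first 5 places were unchanged, and Tgfbr1 stood in place 8 at 82.9 ± 7.41 TPM. There it overlapped Il10rb at 92.7 ± 6.91 TPM, which in turn overlapped Stat3 at 101 ± 9.95 TPM. The transcripts of the receptor chain Il10ra exceeded those of Il10rb by 2.88 and 3.10 times in the control and 3.20 and 2.94 times in the propranolol libraries. Socs3 exceeded Socs1 by 14.3 and 15.6 times and by 16.7 and 16.4 times, respectively.

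The other genes of these pathways were described by 10 lists with 107 genes, of which 95 were tested. Of the 95, 26 were called (27.4%, beside 27.8% of all tested genes), 11 higher and 15 lower, and their median log2 fold change was 0.07. The split moved with single libraries. It was 14 higher and 9 lower without control replicate 1, 18 and 21 without control replicate 2, 19 and 17 without propranolol replicate 1, and 19 and 16 with no filter on low counts. With the GC correction 15 were called, of which 10 were among the 26. The share called was near the background. The counts of single lists below stand beside the same shares of all tested genes, 12.2% called higher and 15.6% lower. With the GC correction the share was 12.6% in either direction, that is, 1122 genes higher and 733 lower of 14688 tested. List medians ran from -0.54 for TGF-beta ligands, latency and activation to 0.56 for genes induced by IL-10, beside -0.02 for all tested genes, and these were -0.34 and 0.31 with the GC correction.

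Around IL-10 itself, none of the family members was called. Of 9 related cytokines and receptors, 2 were tested, and Il19, Il20, Il22, Il24 and Il22ra1 had 0 counts in all 4 libraries. Of 8 transcription factors that act on Il10, 1 was called, the cAMP-responsive factor Creb1, which fell from 70.5 and 73.1 CPM to 44.8 and 47.0 CPM (log2 fold change -0.65, edgeR adjusted p = 0.00116). This direction turned with the GC correction, to 0.27 (edgeR adjusted p = 0.108). Maf, a factor that drives Il10 in macrophages, had the highest CPM of the 8, at 609 and 483 CPM in control TAMs and 565 and 610 CPM after propranolol, and was not called (log2 fold change 0.11).

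Of the 9 genes that IL-10 is known to induce in macrophages, 4 were called higher and 0 lower, beside 12.2% and 15.6% of all tested genes, and the list median was 0.56 on the log2 scale. The list was chosen with results of these libraries known. With the GC correction 2 of the 9 were called, both higher, beside 1122 higher and 733 lower of all 14688 tested genes. Il4ra, the alpha chain of the IL-4 receptor, rose from 471 and 480 CPM to 848 and 849 CPM (log2 fold change 0.83, SE 0.09, edgeR adjusted p = 0.000149). Sbno2, a corepressor that STAT3 induces, rose from 270 and 312 CPM to 515 and 652 CPM (log2 fold change 1.0, SE 0.13, edgeR adjusted p = 0.000316). Hmox1, the gene of heme oxygenase 1, had a log2 fold change of 0.69 and Ddit4, an inhibitor of mTOR complex 1, one of 0.59. All 4 have transcripts of 53.3% GC or more, and with the GC correction Sbno2 at 0.66 was the one of them still called, while Il4ra was at 0.52, Hmox1 at 0.48 and Ddit4 at 0.24. Ddit4 was also not called without propranolol replicate 2, at 0.54. Il1rn, the IL-1 receptor antagonist, was at 141 and 118 CPM in control TAMs and 153 and 121 CPM after propranolol, with a log2 fold change of 0.09 that became 0.77 with the correction (edgeR adjusted p = 0.00213). Without the correction its direction turned with single libraries, from -0.09 without propranolol replicate 1 and -0.02 without control replicate 2 to 0.27 without control replicate 1 or without propranolol replicate 2. These genes also respond to other signals.

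Among 10 Janus kinases and other STATs, Stat5a rose (log2 fold change 0.64) and Stat4 and Jak2 fell. Stat4, known from T and NK cells, was at 9.83 and 10.1 CPM in control TAMs and at 5.06 and 3.01 CPM after propranolol (log2 fold change -1.27, SE 0.28, edgeR adjusted p = 0.00466, and -0.93 with the GC correction). It moved with the T cell and NK cell transcripts given above, and it shares 26.7% of its exon bases with Gm28177. Jak2 had a log2 fold change of -0.69, which was not called with the GC correction (-0.26) or without propranolol replicate 2 (-0.55). Stat5a was at 0.30 and not called with the correction. Of 10 tested cytokines and receptors that also signal through STAT3, Lif rose and Osmr and Il27ra fell. Lif, a cytokine of the IL-6 family, went from 8.28 and 13 CPM to 24.7 and 33.4 CPM (log2 fold change 1.42, SE 0.22, edgeR adjusted p = 0.00093), and it was still called with the GC correction at 1.21. Il27ra was at -0.67, and at -0.97 with the correction, but it was not called without control replicate 1 (-0.62) or without propranolol replicate 2 (-0.53). Osmr, the receptor of oncostatin M, was at 6.67 CPM in control replicate 1 and at 1.15, 0.797 and 0.850 CPM in the other libraries, and its log2 fold change of -2.21 shrank to -0.44 when control replicate 1 was left out (edgeR adjusted p = 0.730). It was also not called with the GC correction, at -1.90 (edgeR adjusted p = 0.0853). Il6 was not tested, at under 1 CPM in every library.

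Of 14 other SOCS genes and inhibitors of the pathway, 1 was called higher and 2 lower. Socs4, at 41.3 and 42.7 CPM in control TAMs and at 19.3 and 17.5 CPM after propranolol, had a log2 fold change of -1.19 (SE 0.13, edgeR adjusted p = 0.000172). Its transcript has 38.5% GC, and with the GC correction the value was -0.14 (edgeR adjusted p = 0.437). Ptpn2, a phosphatase that acts on Janus kinases, was at -0.69 and turned to 0.20 with the correction, and it was not called without control replicate 1 (-0.58) or without propranolol replicate 2 (-0.45). Pias4, an E3 SUMO ligase that restrains STAT activity, was at 0.71 and at 0.40 with the correction, below 1.5-fold. None of the 14 was called with the GC correction.

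The TGF-beta ligands and the genes of latency and activation had 6 of 11 tested genes called, 3 in each direction, beside 27.8% of all tested genes. With the GC correction 1 was called higher and 4 lower, beside 1122 higher and 733 lower of all 14688 tested genes. Thbs1, the gene of thrombospondin 1, which activates latent TGF-beta, rose from 463 and 373 CPM to 1092 and 1570.3 CPM (log2 fold change 1.67, SE 0.16, edgeR adjusted p = 0.000125). The GC correction left it at 1.68. Furin, the protease that cleaves the TGF-beta precursor, was at 0.72 and Nrros, which anchors latent TGF-beta on macrophages, at 0.63, and both were at 0.41 and not called with the correction. Ltbp4 and Ltbp2, genes of latent TGF-beta binding proteins, fell, with log2 fold changes of -1.0 and -0.77. For both, control replicate 1 was highest, as it was for the fibroblast transcripts, and without it the values were -0.42 (edgeR adjusted p = 0.193) and -0.20 (edgeR adjusted p = 0.565). Without propranolol replicate 2 Ltbp2 was at -0.57 and not called, and without control replicate 2 it was at -1.15. With the GC correction both were called, Ltbp4 at -1.26 and Ltbp2 at -1.10. The correction also added lower calls of Ltbp1, of another such protein, at -1.15 in place of -0.96, and of the ligand gene Tgfb3, at -0.74 in place of -0.54. Without control replicate 1 and without the correction, Ltbp1 was at -0.27 and Tgfb3 at -0.21, and without control replicate 2 both were called, at -1.41 and -0.76. Ltbp1 was also called without propranolol replicate 1, at -1.25. Without the GC correction and with all libraries, a replicate block called Ltbp1 at -0.95 (edgeR adjusted p = 0.00955). The DESeq2 Wald test called it at -0.98 and the fit with no filter on low counts at -0.88. Itgav, the integrin alpha v chain, was at -0.61, and it was not called with the GC correction (-0.11), without control replicate 1 (-0.54) or without propranolol replicate 1 (-0.55). Tgfb3 was at 49.6 and 34.8 CPM in control TAMs and 27.4 and 30.6 CPM after propranolol, and Tgfb2 was too low to be tested.

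Of 10 other receptors and coreceptors of the TGF-beta family, 3 were called lower and 0 higher, and with the GC correction 1 was called in each direction. Bmpr1a, Bmpr2 and Acvr2a are receptors of bone morphogenetic proteins and activins. Bmpr2 was at 87.4 and 77.2 CPM in control TAMs and at 42.3 and 43.2 CPM after propranolol (log2 fold change -0.94, SE 0.11, edgeR adjusted p = 0.000246), and at -0.19 with the GC correction. Acvr2a was at -0.85, and at 0.02 with the correction. Bmpr1a was low in all libraries, at 5.18 and 2.90 CPM against 1.07 and 0.327 CPM, and it was called both without (-2.38) and with the correction (-1.69). It had 39 and 5 counts after propranolol, and with any one library left out its value ran from -3.58, without propranolol replicate 1, to -1.87, without propranolol replicate 2. Bambi, the gene of a decoy receptor, was at 2.83 and 6.41 CPM in control TAMs and 7.61 and 7.52 CPM after propranolol. It was not called (log2 fold change 0.68), but was called with the GC correction at 1.14 (edgeR adjusted p = 0.0406) and without control replicate 2 at 1.43, and it was at 0.30 without control replicate 1. The transcripts of Bmpr1a, Bmpr2 and Acvr2a have a GC content of 39.9% to 41.3%, as low as that of Tgfbr1.

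Of 16 tested SMAD genes and their regulators, 1 was called. Skil, the gene of the SMAD corepressor SnoN, fell from 206 and 217 CPM to 103 and 106 CPM (log2 fold change -1.02, SE 0.10, edgeR adjusted p = 0.000107), and it was at -0.26 with the GC correction. Its transcript, like that of Tgfbr1, has 41.0% GC. Smad7, the inhibitory SMAD that TGF-beta induces, was at 48.4 and 53.4 CPM in control TAMs and at 37.4 and 45.2 CPM after propranolol, not called at -0.31 and called at -0.64 with the correction (edgeR adjusted p = 0.00484). Without the correction it ran from -0.17, without propranolol replicate 1, to -0.42, without propranolol replicate 2. Of 5 target genes of TGF-beta and bone morphogenetic proteins, Id1 rose and Ccn2 fell. Id1, a regulator induced by bone morphogenetic proteins, went from 4.65 and 3.50 CPM to 9.07 and 10.4 CPM (log2 fold change 1.26). Ccn2, a matricellular protein gene that fibroblasts express, went from 11.6 and 5.05 CPM to 1.98 and 1.37 CPM (log2 fold change -2.25, and -1.5 without control replicate 1), and 23.2% of its exon bases overlap Gm15270 on the opposite strand. Both were still called with the GC correction, at 0.98 and -2.19.

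**Figure D5:**
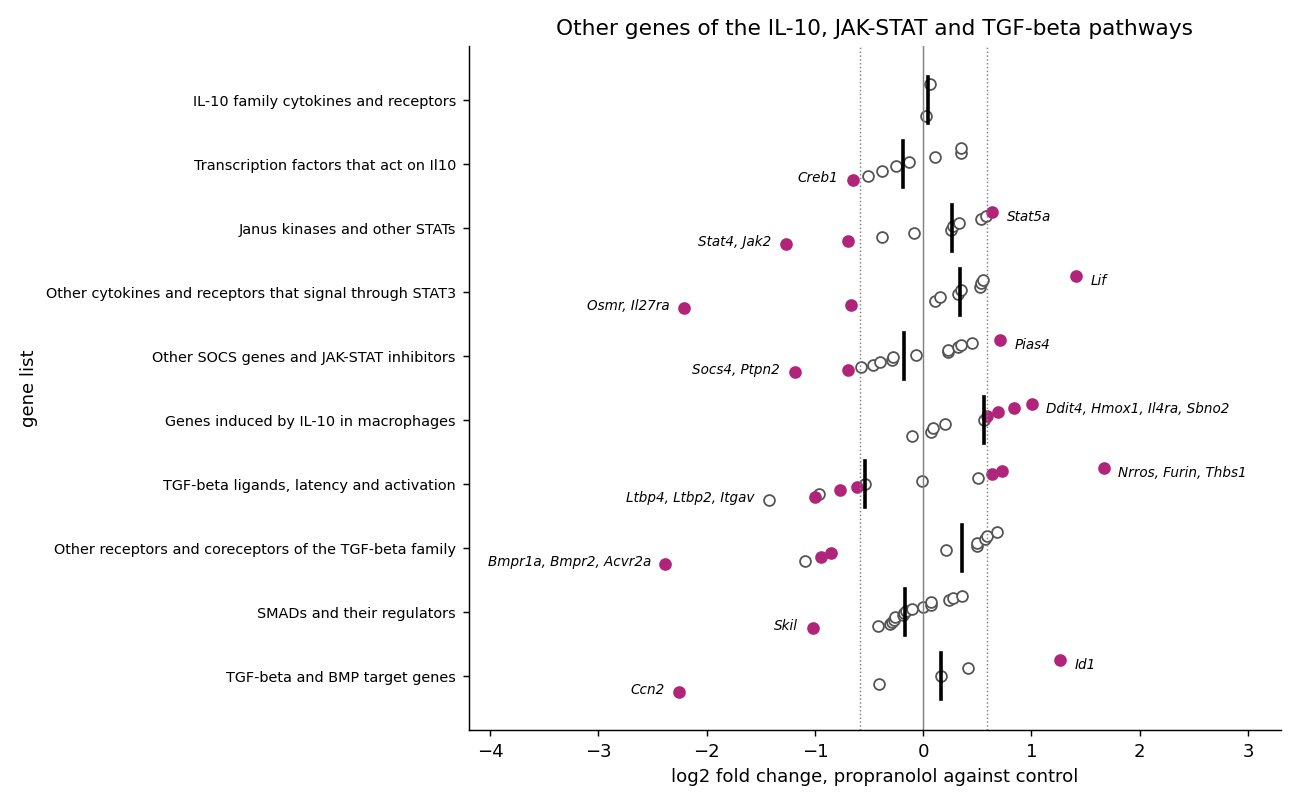
Log2 fold change, propranolol against control, of the 95 tested genes of 10 pathway lists, 1 point a gene, without the GC correction. Filled points were called and are named from left to right, black bars are the list medians and dotted lines mark 1.5-fold. The genes induced by IL-10 have the highest median at 0.56, and the TGF-beta ligand and latency genes spread from -1.43 to 1.67.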

How the data were processed

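RNA sequencing counts of 4 TAM libraries were analysed. The authors deposited whole-number counts per gene without normalization, made with STAR 2.7.1a, SAMtools 1.9 and featureCounts 1.6.4 on mm10 according to the submitters' processing notes, and 0 columns were left out. The study's methods name reads filtered by mapping quality and counting of read pairs over GENCODE exons, with no strand option among the stated parameters. The GENCODE release is not given in the sources used here. Without strand, reads of overlapping genes on opposite strands cannot be told apart.

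R 4.3.3 and edgeR 4.0.16 were used (filterByExpr with a minimum count of 10, TMM, quasi-likelihood F test, Benjamini-Hochberg adjustment over 14688 genes, group as the only term). Standard errors came from the coefficient and the F statistic. Replicates of a group differed by more than sampling noise (chi-square per degree of freedom 10.6 and 13.7). For the GC correction, each library's log2 CPM deviation was fitted on GC content with a natural spline (5 degrees of freedom), and the fitted trend entered edgeR as an offset. TPM used the length of all exons. Alternatives included DESeq2 1.42.0. The edgeR fit was tested on simulated counts without a GC trend. It recovered 99.5% of 200 genes with a simulated log2 change of 1.5 in size, with 7 false calls. That result covers neither counts with a GC trend, as in these data, nor the GC correction.

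The members and lists were chosen with earlier results of these data known. All 10 genes, all called pathway genes and the 3 genes most like Il10 are named. Further names were taken from the 3 highest and 3 lowest of a list, genes of lists of 10 or fewer, and marker genes that lead or define a list. Not every gene of these further kinds is named. Il6, Tgfb2, Tgfb3, Ccr2, Cd4 and Foxp3 were named in addition, after their values were seen.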

Additional observations from a re-analysis of the deposited data

How the results depend on the processing

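Of 110 alternative values of the 10 genes, 95 kept their direction and their call, which rests on adjusted p and fold together. The adjusted p alone crossed 0.05 in some of these, for Tgfb1, Stat3 and Socs3. Most changes of direction or call came with the GC correction, by its construction from each library's GC trend. It gave 1855 calls among all tested genes, 1 among the 10 and 15 among the pathway genes. Its values were 1.13 for Il10, -0.14 for Il10ra, -0.27 for Tgfbr1, 0.51 for Tgfbi, -0.32 for Socs1 and -0.17 for Socs3. With the correction and the replicate block together the calls were 2128, 1 and 15, and the values 1.17 for Il10, -0.14 for Il10ra, -0.27 for Tgfbr1, 0.50 for Tgfbi, -0.31 for Socs1 and -0.16 for Socs3. The Socs1 value was also -0.0023 with a stricter filter and -0.0300 without control replicate 1. Other thresholds changed counts by their construction. Without a fold threshold 6204 of all tested genes and 49 pathway genes were called, with a log2 fold change over 1.5 in size 728, 0 of the 10 and 4 pathway genes, and with glmTreat against 1.5-fold 1093, 1 of the 10 (Tgfbr1) and 10 pathway genes.

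With each library left out in turn, the spread came from the intact group, and the library left alone was taken to vary as much. Calls were then 3615 to 4329 of all tested genes, 2 to 3 of the 10 and 23 to 39 of the pathway genes, and values 0.50 to 1.07 for Il10 and -0.03 to 0.16 for Socs1. TPM in place of CPM, an alternative chosen after seeing the data, gave 6 of the 10 genes without overlap (2 higher and 4 lower) in place of 7 (6 and 1). The low counts of Il10 limit its precision.

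Replicate numbers 1 and 2 occur in both groups, but the labels tie them to no shared animal, batch or day. Deviations of same-numbered libraries correlated at 0.169 across genes. With the replicate block 4362 of all tested genes, 2 of the 10 and 29 pathway genes were called, and it changed no call of the 10.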
